A study of Mus musculus with 4 samples.

Results

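Xlr, the X-linked lymphocyte-regulated gene, gives its name to a multicopy gene family of the mouse X chromosome, and Sycp3 encodes a relative of the Xlr proteins. The genes described are Xlr, the family members Xlr3a, Xlr3b, Xlr4a, Xlr4b and Xlr4c, and Sycp3 itself, which make up 7 of the 23552 genes in the deposited RNA-seq table. They were matched by Ensembl identifier and were chosen by their known FPKM difference between SUV-OE and control, in which Xlr was among the largest falls. That difference is therefore given as a description, without p-values, and thresholds are named only to place the genes among all tested genes. RNA-seq was done on AML c-Kit+ cells, enriched from bone marrow of moribund C57BL/6 mice that carried leukemia induced by the MLL-AF9 (MA9) fusion. All 4 libraries came from cells with this fusion. The 2 control libraries (replicates 3 and 4) were from cells that carried control-eGFP, and the 2 SUV-OE libraries (replicates 2 and 3) from cells that carried Suv39h1-eGFP. Per the study's methods, the constructs were delivered by lentivirus, and eGFP+ cells were sorted and transplanted into sublethally irradiated adult female C57BL/6J recipients. The cells are thus leukemic cells grown in a host that keeps some of its own marrow, and no label says that the libraries came from separate mice, so p-values measure the spread between these libraries.

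Sycp3 protein builds the axial and lateral elements of the synaptonemal complex, the scaffold that holds homologous chromosomes together in meiosis, and outside germ cells the gene is normally kept silent. The Xlr proteins share a coiled-coil region with it, but their genes are also used in other tissues: Xlr was first described in lymphocytes, and Xlr3b, Xlr4b and Xlr4c are known as imprinted genes of the mouse brain. Many germline genes are silenced in body cells by DNA methylation and by H3K9 methylation. Suv39h1 encodes a methyltransferase that deposits the trimethylated form of this mark, best known from pericentromeric heterochromatin. The comparison asks which of these genes changed in level when Suv39h1 was raised in leukemia cells.

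In the files' mm10 build (gene models of GENCODE M21), Xlr (ENSMUSG00000054626) lies on the minus strand at chrX:53777118-53797706. The Xlr3 and Xlr4 genes form a cluster at least 19277 kb away on the same chromosome. There, Xlr4a (ENSMUSG00000079845, chrX:73074345-73082478, minus strand) and Xlr3a (ENSMUSG00000057836, chrX:73086293-73097095, minus strand) stand 3.81 kb apart. Xlr3b (ENSMUSG00000073125, chrX:73192207-73202930, plus strand), Xlr4b (ENSMUSG00000067768, chrX:73214333-73222453, plus strand) and Xlr4c (ENSMUSG00000031362, chrX:73233688-73243130, minus strand) follow, with 11.4 kb from Xlr3b to Xlr4b and 11.2 kb from Xlr4b to Xlr4c. Sycp3 (ENSMUSG00000020059) is autosomal, on the plus strand at chr10:88459569-88473236. The promoters of the genes whose FPKM differed most (as a difference, not as a ratio), and of Sycp3 for comparison, are shown from RefSeq on GRCm38.p6, the same build as mm10. RefSeq windows were matched for 7 of 7 genes, and each runs 5′ to 3′ from 250 bases before the transcription start to 50 bases after it. Capitals mark matches on either strand to CCAAT (the CCAAT box, bound by NF-Y), TTCCCGC (an E2F-type site, as in many germline promoters that E2F6 represses) and CACGTG (an E-box, bound by MAX with its partners), none of which overlap here.
Xlr promoter, chrX:53797657-53797956, minus strand: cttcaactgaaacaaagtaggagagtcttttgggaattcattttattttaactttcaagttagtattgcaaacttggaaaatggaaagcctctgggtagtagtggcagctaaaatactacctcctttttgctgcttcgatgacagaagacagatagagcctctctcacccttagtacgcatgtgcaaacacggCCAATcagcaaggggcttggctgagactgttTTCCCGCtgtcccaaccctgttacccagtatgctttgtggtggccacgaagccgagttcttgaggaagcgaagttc
Xlr4b promoter, chrX:73214083-73214382, plus strand: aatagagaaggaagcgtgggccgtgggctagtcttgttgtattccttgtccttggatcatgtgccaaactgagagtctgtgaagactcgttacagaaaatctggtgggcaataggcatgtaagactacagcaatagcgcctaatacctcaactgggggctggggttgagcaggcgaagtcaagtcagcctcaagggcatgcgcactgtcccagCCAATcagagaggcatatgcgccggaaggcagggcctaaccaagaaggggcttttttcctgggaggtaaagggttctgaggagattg
Xlr4c promoter, chrX:73243081-73243380, minus strand: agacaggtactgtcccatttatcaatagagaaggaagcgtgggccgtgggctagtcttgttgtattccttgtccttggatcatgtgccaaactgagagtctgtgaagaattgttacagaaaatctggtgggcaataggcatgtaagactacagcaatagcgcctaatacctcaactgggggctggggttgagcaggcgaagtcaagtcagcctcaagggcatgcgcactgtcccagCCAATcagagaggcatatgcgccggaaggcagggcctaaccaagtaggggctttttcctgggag
Sycp3 promoter, chr10:88459337-88459636, plus strand: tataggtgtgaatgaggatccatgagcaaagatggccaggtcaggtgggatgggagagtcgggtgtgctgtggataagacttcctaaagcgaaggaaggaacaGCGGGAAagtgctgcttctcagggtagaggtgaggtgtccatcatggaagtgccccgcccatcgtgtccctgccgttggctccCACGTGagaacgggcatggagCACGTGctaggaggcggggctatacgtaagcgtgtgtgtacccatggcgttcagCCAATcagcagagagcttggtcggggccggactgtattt

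Xlr4b and Xlr4c have almost the same promoter: over 277 aligned bases they were 98.6% identical, with 3 mismatches and 1 gap base, and each holds 1 CCAAT box and no E2F-type site or E-box. The window of Xlr4a was 98.3% identical to that of Xlr4b over 292 bases, whereas the windows of Xlr3a and Xlr3b were 87.5% identical over 239 bases. The window of Xlr holds 1 CCAAT box and 1 E2F-type site. The window of Sycp3 holds 1 E2F-type site, which appears above as its reverse complement, 2 E-boxes and 1 CCAAT box. Among all 32851 promoter windows of the mouse genome, 4.6% hold the E2F-type letters, 7.15% the E-box and 37.4% the CCAAT box. CpG dinucleotides, the sites of DNA methylation, number 15 in the window of Sycp3 and 5 to 8 in those of the 6 Xlr family genes, against a median of 7 over all windows. These matches describe the sequence only, and binding and methylation at these promoters were not measured here.

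Suv39h1 itself was at 12.4 FPKM (fragments per kilobase of exon, scaled to the mapped reads of the library) in both control libraries, at 75.3 FPKM in SUV-OE replicate 2 and at 81.2 FPKM in SUV-OE replicate 3. Its log2 fold change was 2.56 (limma adjusted p = 0.00866). The 13736 genes whose FPKM averaged 0.5 or more were tested. Fold changes are on the log2(FPKM + 1) scale unless said otherwise, which understates the change of low genes. A gene counted as differentially expressed (DEG) when its adjusted p-value was under 0.05 and its log2 fold change was 1 or more in either direction. The depth, recovered as whole reads from the steps between FPKM values, corresponded to a divisor of 16873770 to 19453058 reads per library. At these depths 3 reads on a gene of 1 kb corresponded to 0.154 to 0.178 FPKM, a limit that covers counting error only.

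Xlr carried most of the family's RNA in control cells and little of it in SUV-OE cells. Its FPKM was 34.8 and 43.1 in control replicates 3 and 4, and 1.96 and 2.97 in SUV-OE replicates 2 and 3. Both SUV-OE libraries lay far below both control libraries, with means of 38.9 ± 5.86 (SD, n = 2) in control and 2.46 ± 0.713 (SD, n = 2) in SUV-OE. The ratio of the means was 15.8, from 1579 and 1696 reads in control against 81 and 123 in SUV-OE. On the log2 scale the difference was -3.54 (standard error 0.20), which ranked 2nd from the largest fall among the 13736 tested genes and 1st among the 433 tested genes of the X chromosome. In control cells the level of Xlr ranked 52nd of those 433.

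Xlr4b, a gene of the Xlr4 branch, went the other way. Its FPKM was 0.944 and 1.99 in control replicates 3 and 4, and 8.67 and 8.55 in SUV-OE replicates 2 and 3. The SUV-OE libraries agreed closely with each other (8.61 ± 0.0892, SD, n = 2) and lay above both control libraries (1.47 ± 0.74, SD, n = 2), which were farther apart. The ratio of the means was 5.87, and the log2 difference of 1.99 (standard error 0.23) was the 64th largest rise of all tested genes and the 3rd largest on the X chromosome.

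Xlr4c, the neighbour of Xlr4b with the nearly identical promoter, was lower in SUV-OE cells. The FPKM values of Xlr4c were 2.19 and 3.53 in control replicates 3 and 4, and 0.833 and 0.328 in SUV-OE replicates 2 and 3. The groups did not overlap (2.86 ± 0.95 against 0.58 ± 0.357, SD, n = 2 each), and the control mean was 4.93 times the SUV-OE mean. This log2 difference of -1.28 (standard error 0.26) did not pass the DEG thresholds in limma on FPKM.

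Xlr4a, the third gene of the branch, showed a small difference. Its FPKM was 0.536 and 0.502 in control replicates 3 and 4, and 0.734 and 0.989 in SUV-OE replicates 2 and 3, from 13 to 27 reads per library. The SUV-OE values were both slightly above the control values, and the log2 difference of 0.29 (standard error 0.17) was not past the thresholds.

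The remaining genes had few reads. Xlr3b had 0 and 2 reads in control replicates 3 and 4 (FPKM 0 and 0.0314), and 33 and 15 reads in SUV-OE replicates 2 and 3 (FPKM 0.492 and 0.223). Scaled for depth, the summed reads gave a ratio of SUV-OE to control of 24.5, with an exact 95% interval of 6.43 to 208 that covers counting error only. Its mean FPKM of 0.187 was under the 0.5 needed for the test. Xlr3a had 0 reads in each control library and 2 in each SUV-OE library, which is under the floor of 3 reads, so no fold is given. Sycp3 had 0 and 4 reads in control, against 3 and 0 in SUV-OE (FPKM 0 and 0.188 against 0.134 and 0), with the groups overlapping. The meiotic namesake of the group was thus not detectably different between groups at this depth, and its RNA was near absent from all 4 libraries.

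**Figure D1:**
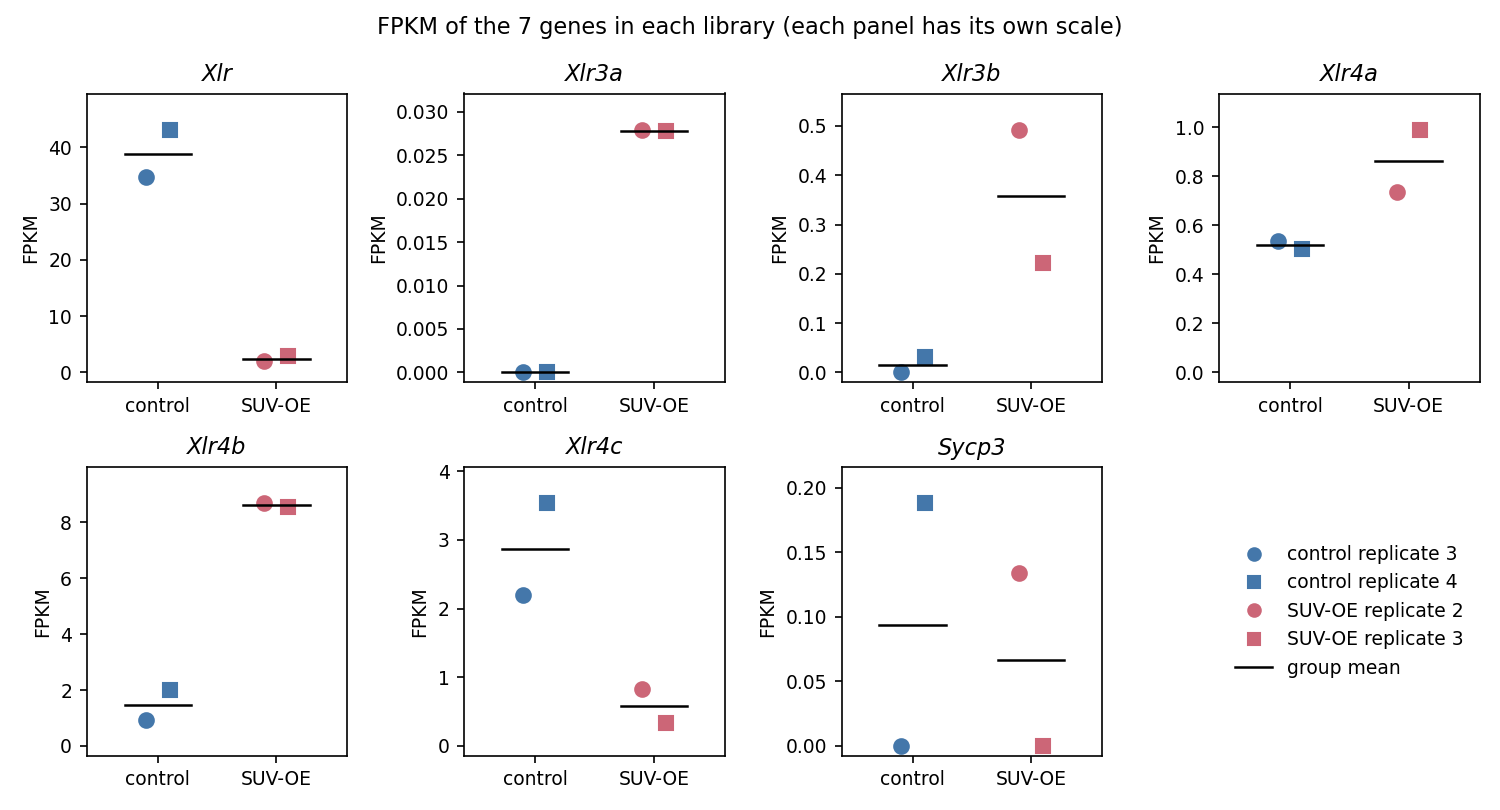
FPKM (y axis, linear, a separate scale per panel) of the 7 genes in each library, with control in blue and SUV-OE in red, circles and squares for the libraries of each group, and a line at the group mean. Xlr falls from 34.8 and 43.1 to 1.96 and 2.97, Xlr4b goes from 0.944 and 1.99 to 8.67 and 8.55, and the points of Sycp3 overlap at 0 to 0.188.

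Of the 7 genes, 4 passed the filter on low values, and Xlr3a, Xlr3b and Sycp3 did not. In these 4 genes the libraries of the groups did not overlap, with SUV-OE higher in Xlr4a and Xlr4b and lower in Xlr and Xlr4c. Such a separation was seen upward in 25.4% and downward in 28.4% of all tested genes. Xlr (down) and Xlr4b (up) passed the DEG thresholds, where 1.22% of all tested genes did (0.408% down and 0.815% up), but this contrast was used to choose the genes and nothing is read from the count. The same holds for limma-voom on the recovered reads, in which Xlr, Xlr4c (both down), Xlr3b and Xlr4b (both up) were past the same thresholds among the 5 of the 7 genes it could test, against 4.72% of all 14278 genes (1.11% down and 3.61% up). The median log2 fold change over all 7 genes was 0.04, which is the value of Xlr3a, a gene under the floor. Over the 4 genes that passed the filter it was -0.50, beside -0.02 over all tested genes. When any 1 library was left out, the DEG count fell to 0 of 13736 genes in limma, with 1166 to 3877 genes at an unadjusted p-value under 0.05.

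The order of the genes by level, on the per-length FPKM scale, changed between the groups. In control cells it ran from Xlr (38.9) to Xlr4c (2.86), Xlr4b (1.47) and Xlr4a (0.519), with no overlap between neighbours in that order, and the values of Sycp3, Xlr3b and Xlr3a below these overlapped. In SUV-OE cells Xlr4b was highest (8.61), followed by Xlr (2.46). Below them came Xlr4a (0.862) and Xlr4c (0.58), whose libraries overlapped, as did those of Xlr4c and Xlr3b (0.358).

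Together the 7 genes took 1737 and 1934 reads in control replicates 3 and 4 and 566 and 569 reads in SUV-OE replicates 2 and 3. Xlr supplied 90.9% and 87.9% of the reads of the 6 Xlr family genes in control, but 14.4% and 21.6% in SUV-OE. The total of the 7 genes was thus lower in SUV-OE, as was Xlr, while the reads on the 3 Xlr4 genes went from 158 and 232 in control to 447 and 429 in SUV-OE. Within the Xlr4 branch, Xlr4b made up 29.7% of the reads in control replicate 3 (exact Clopper-Pearson 95% interval 22.7% to 37.5%) and 37.1% in control replicate 4 (30.8% to 43.6%). In SUV-OE replicates 2 and 3 the share of Xlr4b was 88.1% (84.8% to 91%) and 90.7% (87.5% to 93.3%). The main Xlr4 transcript was therefore Xlr4c in both control libraries and Xlr4b in both SUV-OE libraries, and the intervals cover counting error only.

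**Figure D2:**
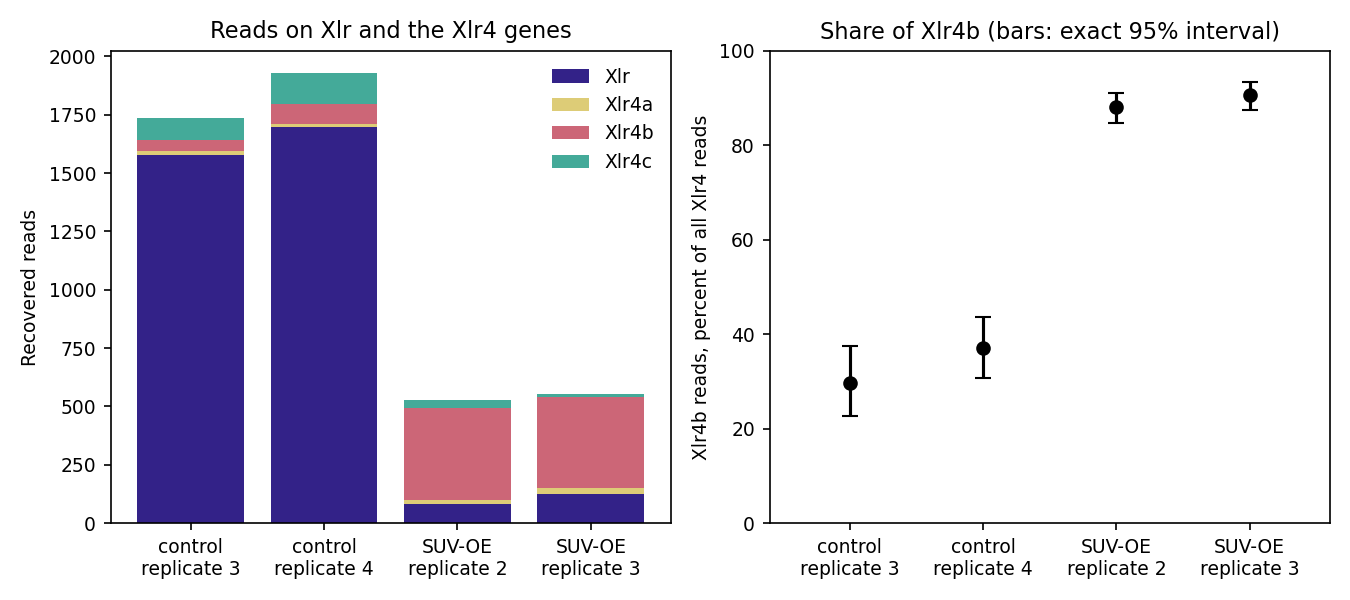
Left, reads recovered from the FPKM (y axis) on Xlr, Xlr4a, Xlr4b and Xlr4c in each library, stacked. Right, the share of Xlr4b in the reads of the 3 Xlr4 genes (y axis, percent) with exact 95% intervals, which is 29.7% and 37.1% in control, against 88.1% and 90.7% in SUV-OE.

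How reads were shared among such similar genes could affect these values. Of all windows of 150 bases, the read length, in the transcripts of Xlr4b, 32.8% also occur in a transcript of another gene, and 31.3% occur in Xlr4c. For Xlr4c the share was 45.4%, with 39.8% in Xlr4b, and for Xlr4a it was 40.4%. Xlr shared only 3.81% of its windows, with Gm14599. In Xlr3a and Xlr3b 12.2% and 18.7% of the windows were shared. The levels of Xlr4a, Xlr4b and Xlr4c are therefore uncertain to the extent that reads of one were assigned to another. The FPKM summed over the Xlr4 genes was 3.67 and 6.02 in control replicates 3 and 4, and 10.2 and 9.86 in SUV-OE replicates 2 and 3. The library kit does not mark strand. Chpt1 overlaps Sycp3 on the opposite strand and holds 29.3% of its windows, and reads from these shared windows cannot be told apart. Xlr5a, an annotated family member not used here, spans Xlr3b, Xlr4b and Xlr4c, but none of the windows of these genes was found in its transcripts.

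Of the genes within 500 kb of any of the 7 genes, 24 were tested and 1 was a DEG (4.17%, against 1.22% of all tested genes). Within 500 kb of Xlr the table held 13 other genes, of which 7 were tested. Of these, 2 had an unadjusted p-value under 0.05 (2842 of 13736 over all tested genes) and 1 was a DEG. This gene, the uncharacterised 4930502E18Rik (chrX:53724826-53738441, plus strand), lies 38.7 kb from Xlr. Its FPKM was 3.78 in each control library and 0.276 and 0.749 in SUV-OE replicates 2 and 3, so it was low where Xlr was low. It fell by 1.68 on the log2 scale (standard error 0.20, limma adjusted p = 0.0434, and 0.0175 to 0.137 over the alternatives). The call did not hold with a pseudocount of 0.1. The other 6 tested genes of the window, which include the retrotransposon-derived Rtl8a, Rtl8b and Rtl8c, had log2 fold changes from -0.63 to 0.05. The 2 genes next to Xlr on the side of lower coordinates, Zfp36l3 and Gm14593, had at most 13 reads in a library, and the nearest on the other side, Atf1-ps, at most 8. Zfp36l3 and Gm14593 were lower in both SUV-OE libraries, and Atf1-ps was higher. Also lower were the untested Fam122c and AW822252 (14 and 10 reads in control, 0 and 1 in SUV-OE). At so few reads, no fold is given for these genes.

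Over all tested genes, 2842 of 13736 had an unadjusted p-value under 0.05. Around the Xlr3 and Xlr4 cluster, 8 of 15 other genes were tested and 0 were DEGs by limma or limma-voom, with 2 at an unadjusted p-value under 0.05. Their log2 fold changes ran from -0.50 to 0.10. F8a, a gene that lies between Xlr4b and Xlr4c, had FPKM values of 5.38 and 4.12 in control, against 3.76 and 4.2 in SUV-OE, which overlapped (log2 fold change -0.20, limma adjusted p = 0.529). The higher level of Xlr4b and the lower level of Xlr4c thus stood on either side of a gene whose groups were not separated. Around Sycp3, 9 of 17 other genes were tested and 0 were DEGs by limma (3 at an unadjusted p-value under 0.05), including Chpt1, the choline phosphotransferase gene that overlaps Sycp3 (log2 fold change 0.22, adjusted p = 0.464). In limma-voom, Ano4, an untested gene at the far end of this window, was past the thresholds (chosen after its values were seen). On the whole X chromosome, leaving out the 7 genes and Suv39h1, 10 of 428 tested genes were DEGs (2.34%, against 1.22% of all tested genes), 5 in each direction. Those that fell included Bhlhb9, Bex2 and Rbm3, the gene of a cold-induced RNA-binding protein, and those that rose included Cybb, which encodes a subunit of the phagocyte NADPH oxidase.

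**Figure D3:**
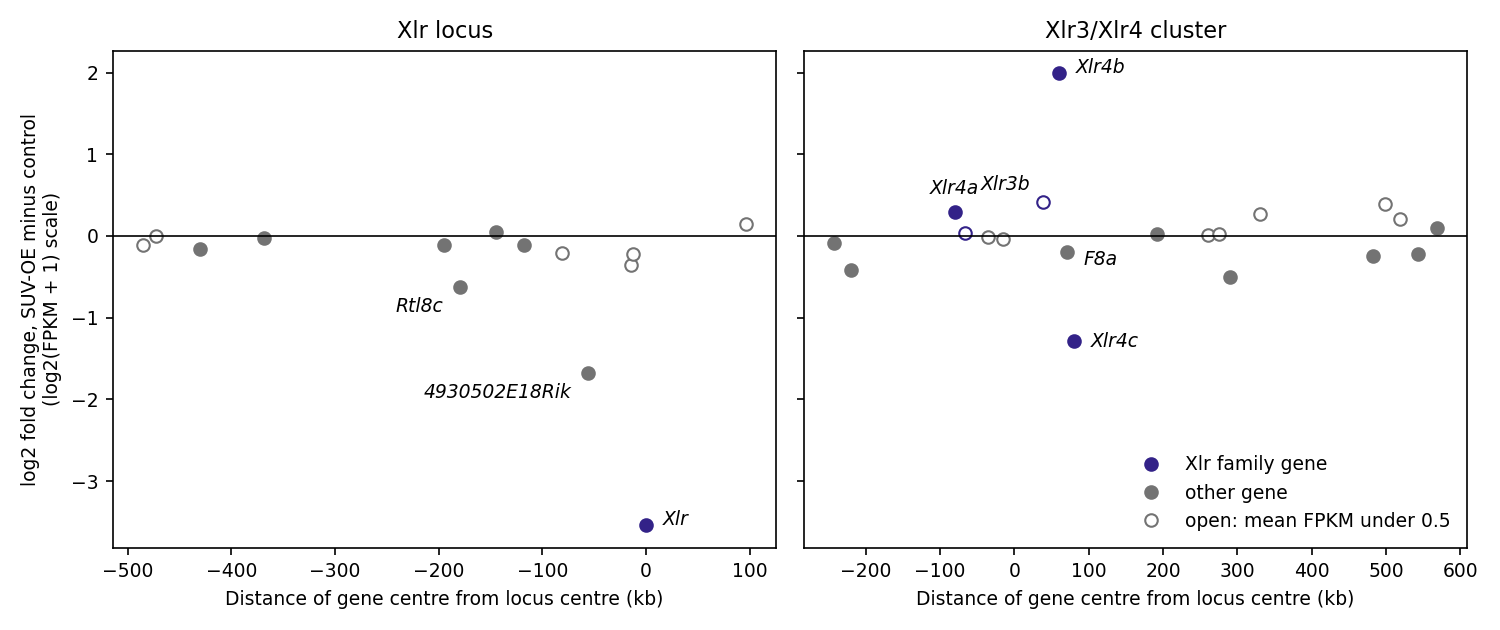
Log2 fold change (y axis, SUV-OE minus control) of genes within 500 kb of Xlr (left) and of the Xlr3 and Xlr4 genes (right), against the distance of each gene's centre from the centre of the locus in kb (x axis). Dark points are Xlr family genes, grey points other genes and open points genes with a mean FPKM under 0.5. Apart from the family genes, 4930502E18Rik at -1.68 is the point farthest from 0.

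The wider meiotic and germline genes were looked at by lists taken from general knowledge. None of the 7 further Xlr family genes listed (such as Xlr3c, Xlr5a and Slx) was used here. The list of Sycp3 partners in the synaptonemal complex had 17 symbols, of which 4930447C04Rik and Six6os1 name the same gene. Of these, 10 were in the table and 2 were tested, with 0 DEGs by limma or limma-voom. An unadjusted p-value under 0.05 was found in 2842 of all 13736 tested genes and in both tested partners. These were Syce2, a protein of the central element (FPKM 41.7 and 50.4 in control, 31.5 and 36.6 in SUV-OE, log2 fold change -0.42, limma adjusted p = 0.225), and Trip13, an ATPase that remodels HORMA-domain proteins in meiosis and in mitotic checkpoints (15.2 and 14 against 9.45 and 8.93, log2 fold change -0.61, limma adjusted p = 0.0872). In limma-voom Trip13 had an adjusted p of 0.0422, but its log2 fold change of -0.66 was short of the threshold of 1. The other 8 of these partners, Hormad1 and Sycp2 among them, had an FPKM of at most 0.395 in every library.

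Of 25 genes for meiotic cohesin and recombination, 11 were tested and 1 was a DEG (9.09%, against 1.22% of all tested genes). That gene, Psma8, encodes the testis-specific alpha subunit of the proteasome of spermatocytes, and its value was known before the list was drawn up. Its FPKM was 8.96 and 9.77 in control replicates 3 and 4 and 0.366 and 0.698 in SUV-OE replicates 2 and 3. It fell by 2.77 on the log2 scale (standard error 0.16, limma adjusted p = 0.0146, and 0.00323 to 0.111 over the alternatives). Among those that did not pass were Stag3, a meiotic cohesin subunit (log2 fold change 0.46, limma adjusted p = 0.152), and the strand exchange factors Mnd1 (-0.85, limma adjusted p = 0.0829) and Psmc3ip (-0.62, limma adjusted p = 0.16). The median log2 fold change of the 11 was 0.06, beside -0.02 over all tested genes.

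Of 32 germ cell and piRNA genes, 7 were tested and 2 rose, where 0.815% of all tested genes rose. These were Tdrd9 and Tdrd5, Tudor-domain genes of the piRNA pathway, which silences transposons in germ cells. Both passed the filter on low values only through their SUV-OE libraries, so their share of the 7 is not read as a result. The FPKM of Tdrd9, an RNA helicase, was 0.408 and 0.58 in control, against 9.7 and 16.7 in SUV-OE (log2 fold change 3.20, standard error 0.27, limma adjusted p = 0.026, and 0.00374 to 0.118 over the alternatives). For Tdrd5, the values were 0.0296 and 0.154 in control, against 6.74 and 6.27 in SUV-OE (log2 fold change 2.78, standard error 0.15, limma adjusted p = 0.0136, and 0.00303 to 0.111 over the alternatives). Both moved in the direction of Xlr4b and opposite to Xlr. Tdrkh, another Tudor-domain gene of the pathway (named after its values were seen), had lower values in SUV-OE, with an FPKM of 1.52 and 1.65 in control against 0.45 and 0.641. Its log2 fold change of -0.75 did not pass in limma (adjusted p = 0.112), but limma-voom called it down, so that 3 genes of this list passed there (2 up and 1 down). Dnmt3l (log2 fold change -0.38, limma adjusted p = 0.356), a cofactor of germline DNA methylation, Ddx4 (0.24, limma adjusted p = 0.584), a germ cell helicase, and Nanos3 (-0.07, limma adjusted p = 0.843) did not pass. Of 33 genes listed for X-linked testis and placenta families, 7 were in the table, but Mageb3 among these lies on chromosome 2. Of the 7, 2 were tested, Rhox10 (log2 fold change 0.17) and Nxf2 (-0.38), with 0 DEGs by limma or limma-voom and 0 at an unadjusted p-value under 0.05.

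Repressors known to hold germline genes silent were expressed in all libraries. The 30 symbols listed included Tasor and Fam208a, which name the same gene, and all 29 genes were tested. Of these, 5 had an unadjusted p-value under 0.05 (2842 of 13736 over all tested genes). By limma or limma-voom 0 of the 29 were DEGs, and their median log2 fold change was -0.06. The 3 with the highest level were Trim28, a corepressor of KRAB zinc finger proteins (log2 fold change -0.11, limma adjusted p = 0.795), Dnmt1 (-0.20, limma adjusted p = 0.576), the maintenance DNA methyltransferase, and its cofactor Uhrf1 (-0.44, limma adjusted p = 0.263). E2f6, whose type of site is in the windows of Xlr and Sycp3, had FPKM values of 30.6 and 29.5 in control, against 24 and 24.6 in SUV-OE (log2 fold change -0.30, limma adjusted p = 0.223). Atf7ip, a partner of the H3K9 methyltransferase Setdb1, had the largest positive log2 fold change of the 29, 0.75 (limma adjusted p = 0.0796). In limma-voom Atf7ip had an adjusted p of 0.0194, but its log2 fold change of 0.86 was under the threshold of 1. E2f6 and Atf7ip were named after their values were seen.

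**Figure D4:**
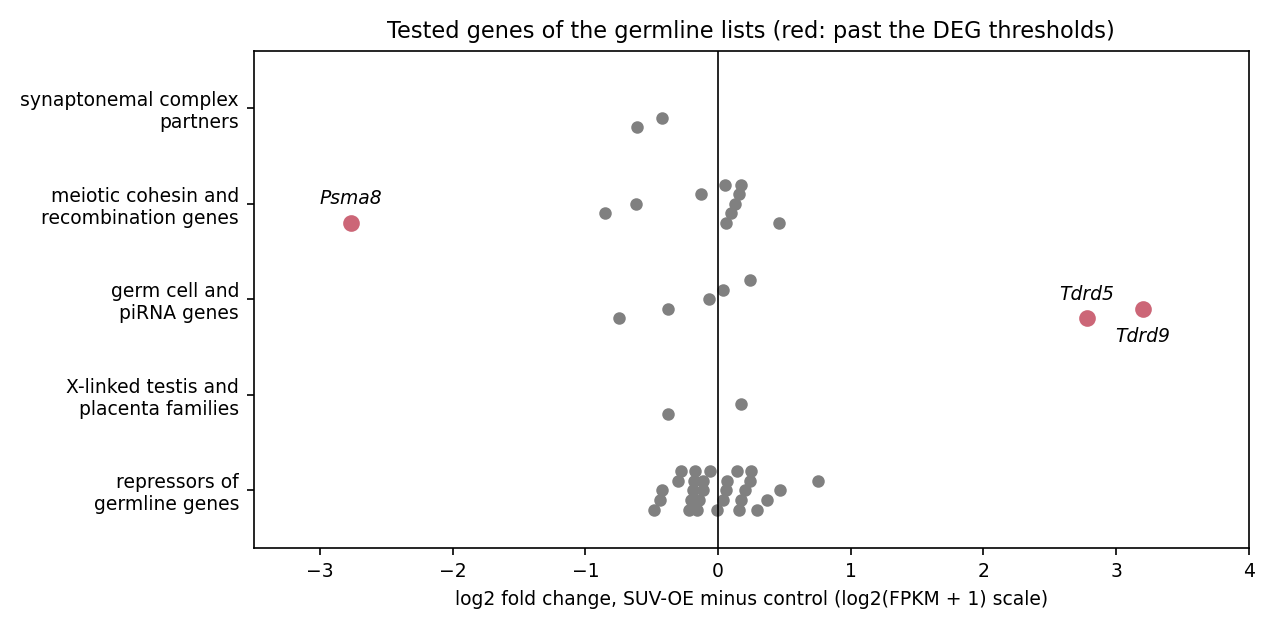
Log2 fold change (x axis, SUV-OE minus control, log2(FPKM + 1) scale) of each tested gene in 5 lists (y axis, points spread vertically to separate them), with DEGs in red and named. Psma8 at -2.77, Tdrd5 at 2.78 and Tdrd9 at 3.20 stand apart from points that lie between -0.85 and 0.75.

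Genes whose pattern over the 4 libraries was most like that of Xlr were found by the Euclidean distance between centred log2(FPKM + 1) profiles. They were Rbp4 (distance 0.459), Psma8 (0.786), Gm15283 (0.843), Bhlhb9 (0.941) and Mgl2 (0.993). Their order was also that of their log2 fold changes, from -3.36 for Rbp4 to -2.57 for Mgl2. The list thus largely follows the size of the fall, a value by which Xlr was chosen, and shows no further likeness. Rbp4, the plasma carrier of retinol, had FPKM values of 8.05 and 13.3 in control, against 0.13 and 0.0867 in SUV-OE. Only Bhlhb9 of these 5 is on the X chromosome. No such list is given for Sycp3, whose values were at or near the floor.

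Markers of some other cell types were higher in the same SUV-OE libraries. Over all tested genes, 25.4% were higher and 28.4% lower in both SUV-OE libraries. DEGs made up 1.22% in limma and 4.72% in limma-voom, and 2842 of 13736 genes had an unadjusted p-value under 0.05. All 9 neutrophil markers were higher in both SUV-OE libraries (summed FPKM 750 to 2372 in control, 6631 to 8078 in SUV-OE), and 1 of them, Ltf, was a DEG in limma and 7 were in limma-voom. Of 13 B-lymphoid markers, 9 were higher in both SUV-OE libraries and 0 were lower in both (summed FPKM 22.2 to 31 in control, 44.1 to 102 in SUV-OE), with 0 DEGs by limma, 4 by limma-voom and 9 at an unadjusted p-value under 0.05. Of 11 T and NK markers, 6 were higher and 1 was lower in both SUV-OE libraries, but only 2 passed the filter on low values (1 higher and 1 lower), and the sums were 2.61 to 2.68 in control and 2.89 to 3.35 in SUV-OE. Of the 9 erythroid markers, 4 were higher and 0 were lower in both SUV-OE libraries, with sums that overlapped (14.7 to 140 against 69.6 to 100). Of the 9 monocyte and macrophage markers, 6 were higher and 1 was lower, again with overlapping sums (369 to 657 against 380 to 412). The lower marker, Ly6c2, made up most of each of these sums (FPKM 281 and 545 in control, 229 and 269 in SUV-OE). The overlap of the sums therefore says little about the other markers of this list. These 3 lists had 0 DEGs by limma, with 1, 4 and 4 genes at an unadjusted p-value under 0.05 and 1, 2 and 1 called by limma-voom. The low level of Xlr in SUV-OE cells hence went with a sum of lymphoid markers that was not lower, and the part of these cell types in the levels of the Xlr genes was not tested. In bulk samples, fewer cells of a type and less RNA per cell cannot be told apart.

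The markers of the labelled cell type were found: 8 of 8 leukemic c-Kit+ markers (Kit, Hoxa9 and Meis1 among them) were present, with a summed FPKM of 648 to 753 in control and 612 to 648 in SUV-OE. Of 12 germ cell markers, 6 were in the table, and their summed FPKM was 3.01 to 4.96 in control and 4.84 to 5.1 in SUV-OE. Most of that sum was Ddx4, at 2.36 and 4.06 in control, against 3.88 and 3.87 in SUV-OE, while Dazl, which defines germ cells, was at most 0.0201. The Xlr genes were thus measured in cells where Dazl and Sycp3 were at or near the floor.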

How the data were processed

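The deposited table gives FPKM for 23552 genes in each library. Per the paper, TruSeq RNA v2 libraries were sequenced as paired ends, reads were aligned to mm10 with TopHat2, and FPKM were computed with Cufflinks. The submitters' processing notes name CASAVA 1.8. The annotation and the other versions are not given in the sources used here. The authors' tool for DEGs was DESeq2. Since the deposited unit is FPKM, the main test was limma 3.58.1 (R 4.3.3) on log2(FPKM + 1) of the 13736 genes whose FPKM averaged 0.5 or more, with group as the only term, an intensity trend and Benjamini-Hochberg adjustment. It was tested on simulated data.

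Whole reads were recovered as FPKM times the exon length of GENCODE M21, at which 78.5% of genes were whole within a tolerance of 0.01 reads, and used in limma-voom (mean of at least 10 reads). Genes were matched by identifier (23438 of 23552).

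Promoter windows came from RefSeq (GRCm38.p6). Identities were computed with Biopython 1.88 and figures drawn with matplotlib 3.10.9.

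The members and lists were chosen with earlier results of these data known. Named genes were the members, Suv39h1, list genes past the thresholds or otherwise highest in FPKM, those most like Xlr, and the nearest genes. Not every gene under this rule is reported. Alternatives were a pseudocount of 0.1, no filter, a minimum mean FPKM of 1, quantile or median-of-ratios scaling, no trend, limma-voom, and leaving out each library. All 4 libraries were labelled as RNA-seq batch 2.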

Additional observations from a re-analysis of the deposited data

How the results depend on the processing

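No paired analysis was possible because just replicate number 3 occurs in both groups. The 168 DEGs became 0 with no filter on low values (4177 genes at an unadjusted p-value under 0.05) and 674 with limma-voom, which raised the share of upregulated DEGs from 66.7% to 76.4%. The 2 members past the thresholds became 1 with a pseudocount of 0.1 (Xlr4b was lost), 0 with no filter and 4 with limma-voom. The median log2 fold change of the members went from 0.04 to 0.35 with a pseudocount of 0.1. With no filter, the 1 meiotic, 2 germ cell, 1 neighbouring and 10 other X-linked DEGs each became 0. A pseudocount of 0.1 left 0 neighbouring and 4 other X-linked DEGs, and limma-voom called 2 and 27. Leaving out any 1 library left 0 to 0 DEGs in all of these counts. Such a fit leaves an arm with 1 library, which is assumed to vary like the others, and it says nothing about stability. The direction of Xlr (log2 fold change -4.00 to -3.32), Xlr3b (0.27 to 4.38), Xlr4a (0.17 to 0.70), Xlr4b (1.68 to 2.67) and Xlr4c (-2.36 to -1.03) was the same under 8 of 8 alternatives, which is no sign of stability, since groups that do not overlap fix it when a library is left out. For Sycp3 it was the same under 5 of 7. The cause of these changes was not tested. The median over all tested genes stayed within -0.04 to 0.01. With 2 libraries per group and under 30 reads for Xlr4a, Xlr3a and Sycp3, small differences in these genes could not be seen.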
